A study of Ginkgo biloba with 9 samples.

Results

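Of the 41309 gene identifiers measured in leaves of Ginkgo biloba, 192 fell in level at each doubling of planting density, from 20 to 40 and again from 40 to 80 plants per square metre. Leaves were taken from 2-year-old nursery trees of the cultivar Fozhi at a control density of 20 plants per square metre (CK), a moderate density of 40 (MD) and a high density of 80 (HD), with 3 RNA sequencing libraries each. The series asks how density bears on leaf yield and on the active compounds of the leaf. Whether the 3 libraries of one density were made from separate trees, plots or pools is not in the labels, so the spread between them may be technical.

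Ginkgo leaves are harvested for extracts rich in flavonoid glycosides and terpene trilactones, compounds made by the phenylpropanoid and the plastid isoprenoid pathways. In dense stands leaves shade each other, and plants sense the weaker and far-red enriched light through phytochromes, whose signalling changes the transcription of many genes. Crowded plants also share water and nutrients in the soil. The table pairs no identifier with a gene name or function, so the roles of the 192 genes cannot be given, leaf marker genes could not be looked up, and 2 identifiers are printed.

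The 192 genes were chosen from their measured levels. A gene had to reach 1 FPKM (fragments per kilobase of gene and unit of library size, the authors' measure, which allows levels of genes of different length to be compared) in at least 3 of the 9 libraries, to have a mean under 1000 FPKM and to be above 0 at each density. On log2(FPKM + 1) its group mean had to drop by at least 0.4 from CK to MD and by at least 0.4 from MD to HD, with all MD libraries below all CK libraries and all HD libraries below all MD libraries. These values are therefore a description, and calls made on them are counted beside the share among all tested genes without support being drawn from them. Since leaf tissue was sequenced in bulk, fewer cells of a kind and less RNA per cell cannot be told apart.

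The criteria narrowed the table stepwise. The low-value filter passed 19854 genes, called tested genes from here on, and 19692 of these met the limits on the mean and on zeros. A first step of at least 0.4 was present in 1916 genes and a second step in 2665, and both steps in 216. In 24 of the 216 the libraries of neighbouring densities overlapped, which left 192. All 192 members passed the low-value filter by the rule. Since their CK libraries are the highest, each of them then had at least 1 FPKM in every CK library. The filter was thus met through the group where they are highest.

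The thresholds cut through a continuum. Just inside, the smaller of a gene's 2 steps was 0.4020 and 0.4027 for the first 2 members, and just outside it was 0.3990 and 0.3979. In 34 members the smaller step lay between 0.40 and 0.45, while 91 genes with separate groups had one between 0.35 and 0.40. Another 4 genes met the steps and the separation but not the other limits. A pair of them was too abundant, with means of 2221 and 1298 FPKM and falls of the same stepwise kind, and the other pair was listed at 0 in all HD libraries.

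In summed FPKM as deposited, the members together lost more than 60% of their level between the lowest and the highest density. Their summed level came to 12764, 12668 and 12451 FPKM in the CK libraries, 8031, 8046 and 7957 in those of MD, and 4956, 4949 and 4892 in those of HD. Group means were 12628 ± 160 FPKM at CK, 8012 ± 47.6 at MD and 4932 ± 35.2 at HD (SD, n = 3). The sum fell by 36.6% at the first doubling and by 38.4% at the second, 60.9% in all. Summed over all genes, the deposited FPKM were also lower in HD (996238 to 1001236) than in CK (1082734 to 1097979) and MD (1082067 to 1085207). Of that total, the members held on average 1.156% at CK, 0.7394% at MD and 0.4939% at HD. Which doubling took more from the members thus depends on the scaling. As a share of reads in genes, the members held 1.69% ± 0.00208 at CK, 1.102% ± 0.00289 at MD and 0.7294% ± 0.00156 at HD (SD, n = 3). The 3 most abundant members made up 24.0% of the sum in CK.

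The typical member fell gradually. The first step had a median of 0.61 on the log2(FPKM + 1) scale with a range of 0.41 to 2.57, and the second a median of 0.69 with a range of 0.40 to 2.95. From CK to HD the median fall was 1.34, and the middle 50% of members lay between 1.12 and 1.84. On the FPKM scale, the median member stood at 60.3% of its CK level in MD and at 29.7% in HD. The HD mean was under 50% of the CK mean in 180 members, under 25% in 78 and under 10% in 22. All 192 were lower in HD than in CK by limma (adjusted p under 0.05 over all tested genes), a call that 26.6% of tested genes received, and 186 and 189 were called lower at the first and second doubling, against 18.6% and 22.6% of tested genes. At both doublings 183 members were called lower, against 4.86% of tested genes. Groups in falling order with no overlap were present in 7.04% of tested genes. The choice of members used these contrasts, so nothing follows from their counts of calls.

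**Figure D1:**
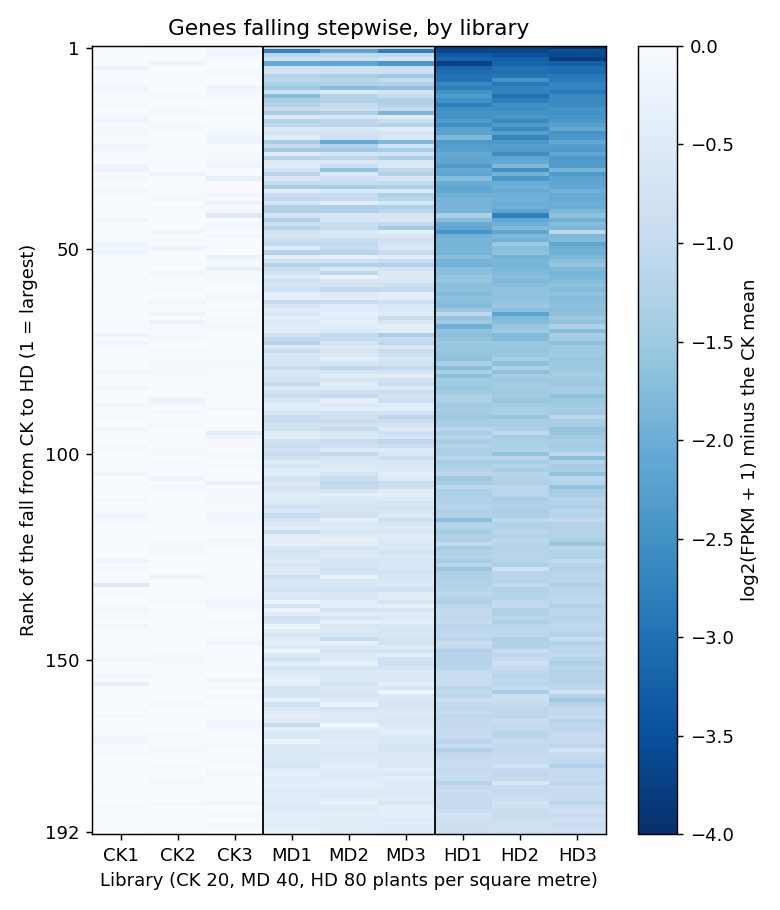
Heat map of the 192 genes falling stepwise (rows, ordered by the fall from CK to HD) in the 9 libraries (columns). Colour gives log2(FPKM + 1) minus the gene's CK mean, with values above 0 drawn white and values below -4 in the darkest blue; the 3 libraries of a density look alike, and the median member stood 1.35 to 1.40 below its CK mean in the HD libraries.

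The member with the largest fall was Gb_19055. It had 67.0, 70.7 and 72.9 FPKM in the CK libraries, 37.98, 38.8 and 36.4 in MD, and 4.30, 4.17 and 3.63 in HD. The level stayed above 50% of CK in MD and was far lower in every HD library, and the groups did not overlap. In means, it stood at 70.2 ± 2.97 FPKM for CK, 37.7 ± 1.22 for MD and 4.03 ± 0.355 for HD (SD, n = 3), a log2 fall of 0.88 at the first doubling and 2.95 at the second. These levels rest on 1451 to 1792 reads per CK library, 647 to 912 per MD library and 68 to 93 per HD library.

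Gb_22919 was the most abundant member. Its libraries held 1093, 1082 and 1076 FPKM in CK, 781, 791 and 790 in MD, and 552, 582 and 542 in HD. The coefficient of variation was 0.771% for CK, 0.666% for MD and 3.73% for HD, and the groups did not overlap. Its fall was small and even, 0.46 and 0.49 on the log2(FPKM + 1) scale, and HD held 51.6% of the CK level. By size of fall it ranked 184 of 192.

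Abundant members fell at different doublings. The member second in mean level had 1098, 1088 and 1059 FPKM in CK, 574, 564 and 584 in MD, and 405, 423 and 425 in HD, so that 66.6% of its log2 fall lay in the first doubling. By contrast, the member ranked 4 in mean level had 782, 767 and 693 FPKM in CK, 517, 494 and 487 in MD, and 169, 175 and 147 in HD. Only 26.5% of its log2 fall lay in the first doubling, and its fall of 2.18 was the largest among the 23 members with a mean of 100 FPKM or more.

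Near-complete loss was seen in some members with a low mean over the 9 libraries, a mean that the loss itself lowers. The member with the second largest fall had 11.9, 12.4 and 10.4 FPKM in CK, 0.919, 1.73 and 0.814 in MD, and 0, 0 and 0.0835 in HD. Its CK mean of 11.6 FPKM was not low, against a median of 10.46 for tested genes in CK. These HD values stand for 0, 0 and 1 reads, against 155 to 201 reads per CK library. In all, 34 members were under 1 FPKM in each HD library and 3 in each MD library, and 6 members were at 0 in at least 1 HD library. By the rule no member could be at 0 in a CK or MD library.

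The members were spread over levels much as the tested genes were, with a larger share at 100 FPKM or more. Means under 10 FPKM were found in 92 members (47.9%, against 48.3% of tested genes). Means of 10 to 100 were found in 77 (40.1% against 43.3%) and means of 100 to 1000 in 23 (12.0% against 7.8%). Genes rising stepwise by the mirrored rule, described below, divided into 44.6%, 48.7% and 6.7%. The rule used the levels, so nothing is read from these shares. The median log2(FPKM + 1) fall of the members was 1.45, 1.34 and 1.19 in these classes. In FPKM, HD held a median of 20.1%, 37.5% and 43.7% of the CK level. The scale adds 1 to each value and so shortens the steps of weakly expressed genes, which must fall further on the FPKM scale to pass the same threshold.

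Most members divided their fall about evenly between the doublings. The share of the log2 fall that lay in the first doubling had a median of 47.85% and ranged from 21.4% to 77.3%. In 156 members (81.2%) it lay between 33.3% and 66.7%, in 30 (15.6%) below and in 6 (3.1%) above. The threshold of 0.4 at each step leaves no room for strongly uneven falls among members with a small total. The 30 members that fell mainly at the second doubling had the larger median fall, 2.00, against 1.26 in the even class, and the lower median level, 6.77 against 12.0 FPKM. A first step of at least 0.4 can be under 33.3% of the fall only where the fall is large. The rule thus favours the larger fall of this class, and nothing is read from it. The second step was the larger one in 116 of the 192.

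The extremes of shape show what the classes hold. The member with the most of its fall at the second doubling had 10.7, 10.8 and 12.7 FPKM in CK, 7.70, 7.29 and 8.31 in MD, and 1.64, 1.01 and 1.90 in HD. That with the most at the first had 9.82, 10.8 and 8.39 FPKM in CK, 2.98, 1.51 and 2.08 in MD, and 1.07, 1.05 and 1.48 in HD. In the latter the lowest MD library and the highest HD library lay close together. Steps of at least 1 at both doublings were reached by 15 members, whose mean levels ran from 2.20 to 79.3 FPKM and whose HD level had a median of 11.5% of CK.

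The gaps between groups can be set against the spread between libraries. In 113 of the 192 members both gaps between neighbouring groups (the lowest library of one to the highest of the next, log2) exceeded the largest range within any density. The rule asked for steps of at least 0.4 without overlap, and the same count was not made over tested genes. Nothing follows from it about the members. The median gap was 0.43 between CK and MD and 0.47 between MD and HD, with lowest values of 0.01 for both. The median coefficient of variation of the members was 6.02% at CK, 6.996% at MD and 11.55% at HD, against 7.59%, 7.74% and 7.75% for all tested genes. In the HD libraries the members were at their lowest levels, with a median of 4.94 FPKM. Averaged over densities and split by mean level, the median was 17.95% in members under 10 FPKM, against 14.34% for tested genes of that class. It was 5.77% against 5.75% at 10 to 100 FPKM, and 2.45% against 3.25% at 100 to 1000 FPKM. The separation asked for by the rule favours a small spread, so nothing follows from these coefficients about the members.

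Read numbers, worked out from the smallest increments of the deposited FPKM, give the depth behind these levels. Libraries held between 14697420 and 22435277 reads in genes. The members had between 78 and 230307 reads over the 9 libraries, with a median of 1994, against 2203 for tested genes. One member had fewer than 100 reads in all.

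The fall was also read in libraries not used to pick the genes. Genes were chosen by the same rule on 6 libraries and followed in the 3 libraries of the remaining replicate number. With the libraries numbered 1 left out, 225 genes were chosen and 206 of them (91.6%) stood in the order CK above MD above HD in the libraries left out, against 21.5% of all genes passing the filter. With number 2 left out this was 210 of 218 (96.3%, against 21.7%), and with number 3 it was 204 of 224 (91.1%, against 21.5%). Both steps reached 0.4 in the libraries left out for 57.8%, 60.6% and 61.2% of the chosen genes, against 1.37%, 1.45% and 1.36% of all genes. The median fall from CK to HD was 1.27, 1.30 and 1.32 there, slightly less than the 1.32, 1.35 and 1.37 in the libraries that chose the genes. Among those chosen, 163, 168 and 173 belong to the 192. The libraries left out share their plants' density and possibly their material with those that chose. The rule itself was set with earlier results of these data known, so the libraries left out are not independent of it. These shares are therefore a description.

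**Figure D2:**
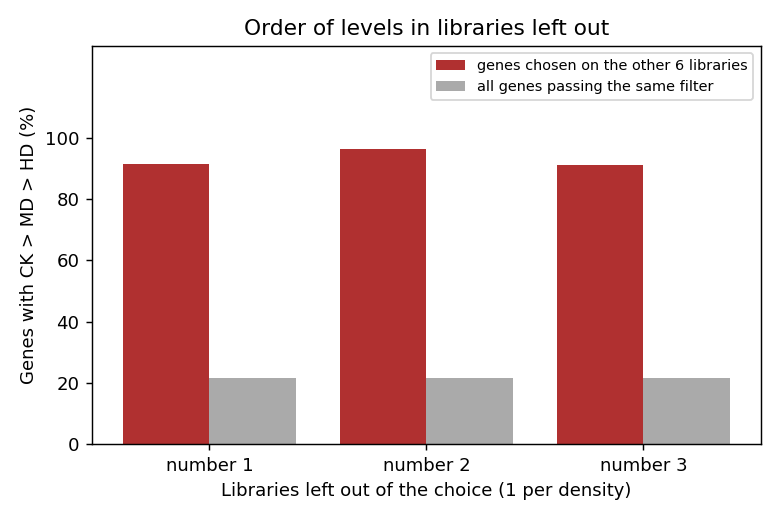
Percentage of genes with levels in the order CK above MD above HD in the 3 libraries left out of the choice, for each replicate number (x axis). Red bars are genes chosen on the other 6 libraries (91.1% to 96.3%) and grey bars are all genes passing the same filter (21.5% to 21.7%).

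The same rule with every sign turned gave 224 genes that rose stepwise. Of all 6 possible orders of the densities, with the same limits on steps and overlap, the rise was met by the most genes and the fall by the next most. The orders with the highest level at MD were met by 121 genes (HD lowest) and 91 (CK lowest), and those with the lowest level at MD by 47 (CK highest) and 108 (HD highest). The balance of falling against rising genes moved little under upper-quartile scaling (199 and 240) and quantile normalization (197 and 233). It moved more under total-read scaling. With libraries scaled to total reads, a setting added after the data were seen, 162 genes fell and 293 rose stepwise, which takes the falling share from 46.2% to 35.6%. All 162 were among the 192.

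**Figure D3:**
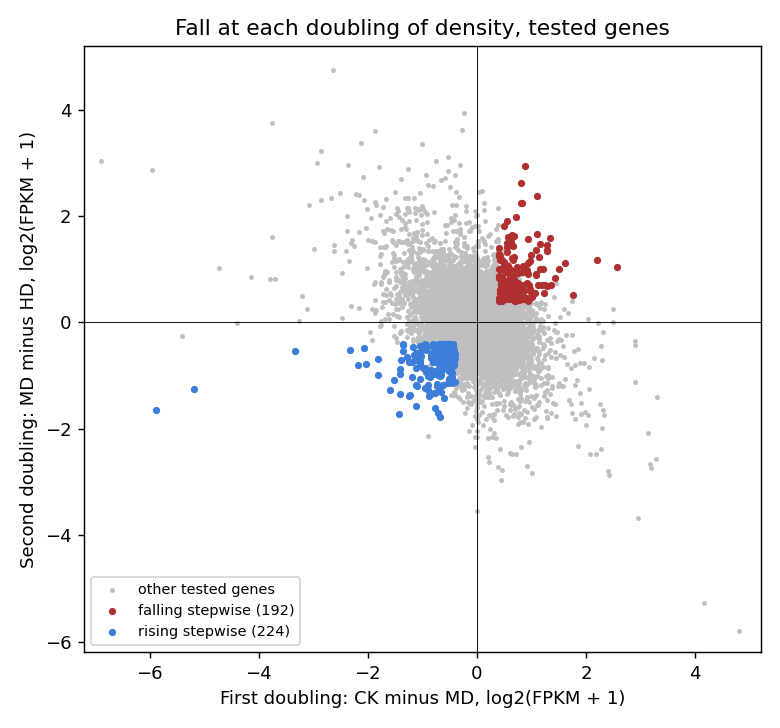
Fall at the first doubling (x axis, CK minus MD) against fall at the second (y axis, MD minus HD), both in log2(FPKM + 1), for the 19854 tested genes. Red points are the 192 genes falling stepwise and blue points the 224 rising stepwise; MD enters both axes with opposite signs, which by itself tilts the grey cloud from upper left to lower right.

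Falling and rising genes were alike in the size of their change, with medians of 1.34 and 1.35 from CK to HD, and in their median level, 11.2 and 12.3 FPKM. Over 66.7% of the log2 change lay in the first doubling in 17 of the 224 rising and 6 of the 192 falling genes, and under 33.3% in 12 and 30. The second step was the larger one in 113 rising and 116 falling genes. None of these differences was tested, since the rule used the values.

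Gene length played no part in the rule except through the FPKM themselves. The length by which the authors' values were divided, worked out likewise from the FPKM, had a median of 1281 nt in the falling genes, 837 nt in the rising genes and 1152 nt in the tested genes. Within the level classes the falling genes had medians of 1317, 1185 and 1449 nt from the lowest class to the highest. The rising genes had 915, 816 and 810 nt, and the tested genes 1281, 1125 and 758 nt. The falling genes thus had the longest median in each class, though close to that of the tested genes in the 2 lower classes. The margin was widest at 100 to 1000 FPKM, where the medians rest on 23 falling and 15 rising genes. The lengths were multiples of 3 in 164 of the 192, as whole coding sequences are, and 86.84% of the genes above 0 in every library had such a length. No test was made of these medians.

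Some genes falling stepwise also lay near each other in identifier number, which the rule did not use. The identifiers just before and just after Gb_19055 were both members, with the seventh and the third largest fall of the 192 (looked at after their values were seen). The gene before it had 38.1, 37.7 and 34.4 FPKM in CK, 21.6, 20.4 and 19.9 in MD, and 3.55, 3.61 and 3.43 in HD. The gene after it had 51.9, 47.4 and 42.4 FPKM in CK, 20.7, 22.1 and 21.5 in MD, and 3.71, 3.38 and 2.96 in HD. All 3 genes fell less at the first doubling (0.802, 0.878 and 1.1, in the order of their numbers) than at the second (2.26, 2.95 and 2.37). Their recovered lengths were 831, 1160 and 795 nt.

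The run ended on both sides. The identifier 2 before Gb_19055 stood at 109 ± 3.17 FPKM for CK, 95.6 ± 1.41 for MD and 115 ± 3.72 for HD (SD, n = 3), with the HD libraries above the CK libraries. The identifier 2 after it was too weakly expressed to be tested, with 1.0 ± 0.288 FPKM for CK, 0.139 ± 0.189 for MD and 0.303 ± 0.263 for HD (SD, n = 3).

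**Figure D4:**
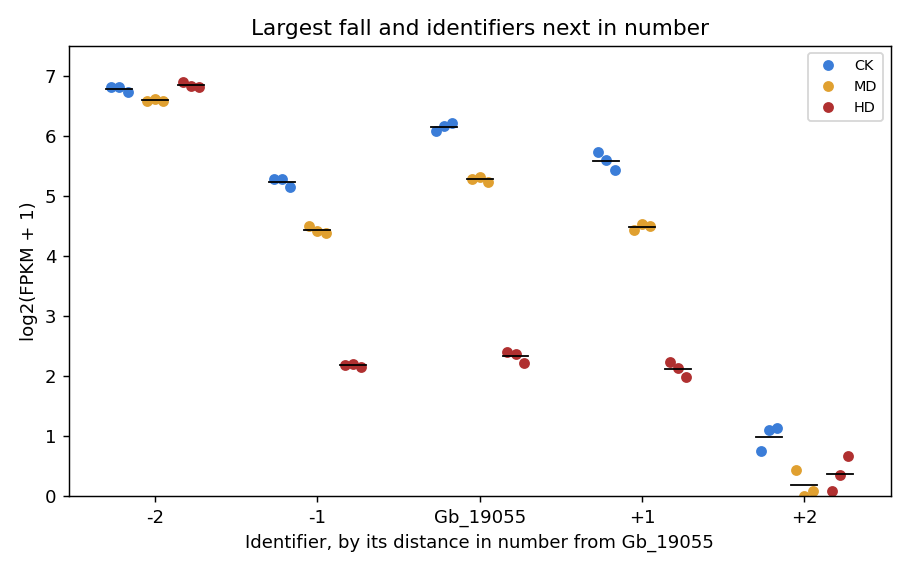
Level in each library, as log2(FPKM + 1), of Gb_19055 and of the identifiers 1 and 2 before and after it in number. Points are libraries and black bars group means of 3 libraries; the 3 middle identifiers fall at both doublings, and the outer ones do not share that course.

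Over all members, 5 pairs had consecutive numbers, which took in 9 of the 192 genes, the run around Gb_19055 among them. Of 180 tested genes whose number differed by 1 from that of a member, 9 (5%) were members, against 0.967% of all tested genes. At a distance of 2 it was 6 of 188 (3.19%), at 3 it was 8 of 165 (4.85%), at 5 it was 2 of 175 (1.14%), and at 10 none of 180. The 171 tested neighbours at distance 1 that were not members were lower in HD than in CK in 59.6%, with a median fall of 0.06, against 49.7% and a median of 0.00 for all tested genes. At distance 2 this was 52.7% of 182 such genes, with a median fall of 0.02, and at distance 3 it was 40.8% of 157, with a median of -0.09, so the lean at distance 1 was not seen at distance 3. Rising genes formed more such pairs, 15, which took in 26 of the 224. A falling and a rising gene stood at distance 1 in 2 cases, at 2 in 4 and at 3 in 6.

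Tested genes at large were also compared by identifier number. Across 10273 pairs of tested genes with consecutive numbers, the changes from CK to HD had a Pearson correlation of 0.160. At a distance of 2 it was 0.055 over 9720 pairs, and at 3 it was 0.018 over 9625. Without the falling and rising stepwise genes it was 0.12, 0.043 and 0.014, over 9856, 9331 and 9255 pairs. All pairs share the same 9 libraries, and genes are not independent replicates. Whether consecutive numbers stand for neighbouring positions in the genome is not given in the sources used here. Reads shared between near-identical gene copies would also draw such pairs together, and their part was not tested.

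**Figure D5:**
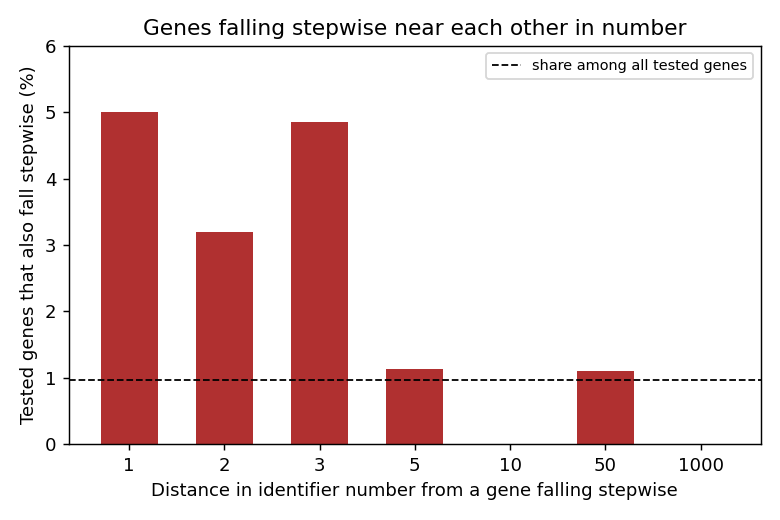
Percentage of tested genes that fall stepwise (y axis) at a given distance in identifier number from a gene falling stepwise (x axis). The bars at distances 1, 2 and 3 reach 5%, 3.19% and 4.85%, and the dashed line is the 0.967% of all tested genes.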

How the data were processed

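The authors deposited 1 table with an FPKM for every gene and library, as the file headers say (per the file headers, the unit is FPKM). CASAVA 1.8, TopHat2 and RSEM are named without roles in the submitters' processing notes, and neither a genome build nor an annotation is given in the sources used here. Each of the 9 columns matched a sample title, and groups and replicate numbers come from those titles. The members, the rule and the gene lists were chosen with earlier results of these data known. The lists need gene names and were not used, and the 2 identifiers printed are the member with the largest fall and that with the highest mean.

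Levels were compared on log2(FPKM + 1), which understates changes of weakly expressed genes. Calls came from limma 3.58.1 (R 4.3.3) with an intensity trend, fitted to all 9 libraries and 19854 genes, with Benjamini-Hochberg adjustment. Values of FPKM are whole reads divided by a gene length and a library size. Of 21602 genes above 0 in every library, 100.0% came out as whole reads (within 0.001 reads plus the rounding of the digits), and the recovery and the fit were tested on simulated data. The authors' library sizes were 0.9721 to 0.9882 times the recovered reads in CK, 0.9991 to 1.006 in MD and 1.0375 to 1.0419 in HD. The deposited values thus carry a further scaling. It rises with density without overlap. Relative to recovered reads it thus lowers every gene slightly in the order CK, MD, HD, the order of the rule. In the deposited values the tested genes had a median fall from CK to HD of -0.003, and 49.7% were lower in HD. Total-read scaling takes the further scaling out. Alternatives were other pseudocounts, scalings, filters and steps, a replicate block, and single libraries left out.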

Additional observations from a re-analysis of the deposited data

How the results depend on the processing

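Total-read scaling was chosen after the data were seen, and all other settings were listed beforehand with earlier results known. Steps of at least 0.3, 0.5 and 1 gave 408, 118 and 15 falling and 413, 135 and 13 rising genes. Other settings kept both counts within 1.5 times. A pseudocount of 0.1 gave 261 falling genes and total-read scaling 162. Without single libraries the rule gave 195 to 219 falling and 224 to 252 rising genes, and between 173 and 186 of the 192 were kept. Total-read scaling moved the median tested gene by 0.077 (log2, HD against CK), which is small against steps of at least 0.4. Upper-quartile and quantile scaling moved it by 0.009 and -0.001. Both steps stayed downward in all 192 members under upper-quartile, quantile and total-read scaling, which the rule made nearly certain. The whole rule was still met by 184, 179 and 162 of them.

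The median first step was 0.72 with a pseudocount of 0.1, 0.63 under quantile normalization and 0.58 under total-read scaling. The median second step was 0.93 with a pseudocount of 0.1, 0.68 under upper-quartile scaling, 0.68 under quantile normalization and 0.65 under total-read scaling. The median fall from CK to HD was 1.71 with a pseudocount of 0.1 and 1.28 under total-read scaling. Without single libraries these medians ran from 0.61 to 0.62, 0.68 to 0.71 and 1.34 to 1.37. Moves were judged against the SD of 3 medians from 1 library per density (0.0147, 0.0119 and 0.0155). Choosing genes with steps of at least 1 gave 100% in falling order in the libraries left out, from 12 to 15 genes.

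Called genes lower in MD than CK, in HD than MD and in HD than CK numbered 3720, 4538 and 5281 with a replicate block, and 180 members were called at both doublings. Without single libraries the calls ran from 3119 to 3691, 3901 to 4459 and 4735 to 5266, with 156 to 176 members at both doublings. Deviations of equal numbers correlated between -0.007 and 0.073, those of unequal numbers between -0.052 and 0.043, and in 14 of 18 cases a library was closest to its own number in another density, a hint from the data only. The numbers were not treated as pairs. Low read numbers limit the HD values of the weakest members.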
